A study of Canis lupus familiaris with 24 samples.

Results

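The response of MDCK-NBL2 cells to TGFb by day 4 was measured in 6 of the 24 mRNA libraries of the study. MDCK cells are an epithelial line from dog kidney, and MDCK-NBL2 is 1 of 2 sublines that were sequenced. The 6 libraries were chosen by their labelled subline, treatment and day, not by any measured value. There were 3 TGFb-treated libraries sampled at day 4, which the labels call full EMT (epithelial-mesenchymal transition), and 3 untreated libraries sampled at day 4, which the labels call epithelial. The groups share subline and day, and no gene was altered or silenced in them. Beside them stand 3 MDCK-NBL2 libraries with TGFb and a control siRNA (siCTR) at day 4, 3 untreated MDCK-NBL2 libraries at day 0, and 3 TGFb-treated (partial EMT by their labels) and 3 untreated MDCK-II libraries at day 4, from the other subline. The labels do not say that replicates are separate cultures, so the tests here see only the spread from library to library, which may be technical.

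TGFb is a secreted cytokine that is stored in the matrix in a latent form, is freed by integrins and proteases, and signals through a pair of receptor kinases to SMAD transcription factors. In epithelial cells it arrests growth and can drive EMT, in which cells give up apical-basal polarity and tight junctions and take up stress fibres and a fibrous matrix. In the kidney this programme is best known from tubule cells in fibrosis.

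Levels are CPM (counts per 1e+06 counts of the library) on library sizes scaled by TMM, given for replicates 1, 2 and 3 in that order, and they were not divided by gene length. A gene was called where the adjusted p of edgeR's quasi-likelihood test over all genes was under 0.05, and log2 fold changes (log2 changes for short) are TGFb over untreated, given ± their standard error (SE). Total counts were 6134929, 9413761 and 7434036 with TGFb, against 23702871, 27567296 and 8021850 untreated. In bulk RNA, fewer cells with a transcript and less transcript per cell cannot be told apart.

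The library labelled untreated replicate 2 stood apart from its group. Its rank correlation over genes with the TGFb-treated libraries was 0.963, 0.976 and 0.969, and with untreated replicates 1 and 3 it was 0.938 and 0.911. For the 3383 genes tested with and without it and called higher with TGFb when it was left out, it lay a median of 64.7% of the way from the other untreated libraries to the TGFb mean on the log2 scale, and for the 3466 genes called lower it lay 62.4% of the way. In linear CPM it looked different. For 31 genes that were under 1 CPM in untreated replicates 1 and 3 and at 10 CPM or more in every TGFb-treated library, it held a median of 12.8% of the TGFb level, with quartiles of 6.54% and 22.3%. With a minimum of 5 CPM in the treated libraries in place of 10 this median was 20.1%, and with a limit of 0.5 CPM in place of 1 in untreated replicates 1 and 3 it was 8.29%. The position differed between gene groups. The median over called members was lowest, among lists with at least 5 such members, for interferon response genes, at -30.1% (6 genes, quartiles -51.3% and 114%), and highest for ribosome biogenesis genes, at 107% (24 genes). Between these it was 80.2% for DNA replication, 74.5% for contractile genes, 62.6% for fibrillar collagens, 50% for lysosomal genes and 35.4% for cadherins and desmosomes. The tests are therefore also given without this library, as "without replicate 2".

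**Figure D1:**
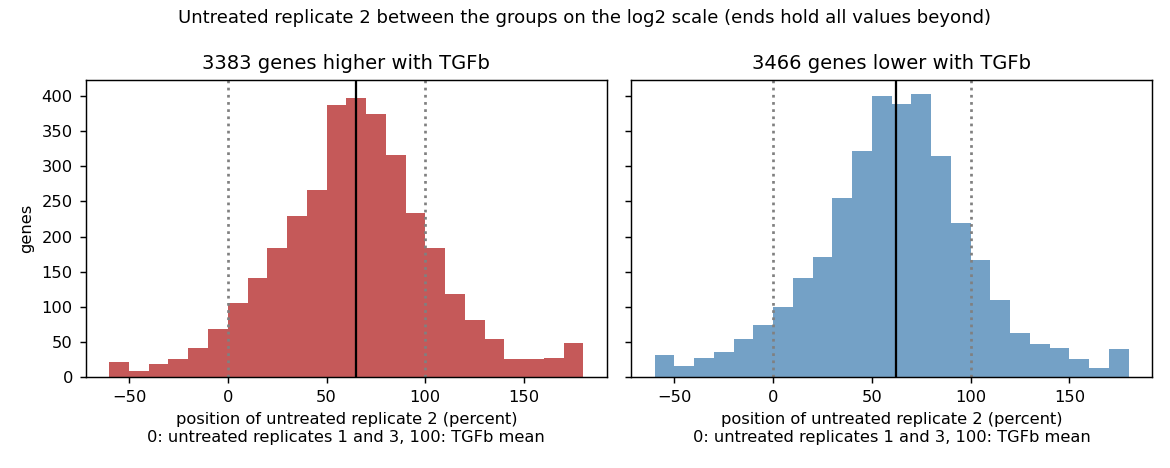
Histograms of the position of untreated replicate 2 for the 3383 genes called higher (left) and 3466 called lower (right) with TGFb when it was left out, in percent on a log2(CPM + 0.5) scale where 0 is the mean of untreated replicates 1 and 3 and 100 is the TGFb mean. The black lines mark the medians at 64.7% and 62.4%, and the end bars hold all values beyond them.

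The other untreated libraries also differed from each other. Summed over 32 mitotic genes, the level was 150, 258 and 388 CPM with TGFb, against 1933, 512 and 4934 CPM untreated, so that replicate 1 lay below replicate 3 and both lay above every treated library. Among the treated libraries, replicate 1 stood higher for a few matrix genes, described below, and it is the only one of the 6 libraries whose number starts with AL58 and not AL26.

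With all 24 libraries in the model, 2612 of 12466 tested genes were called higher with TGFb (21%) and 2913 lower (23.4%), which is 44.3% of the genes in all, at a median log2 fold change of -0.04. Without replicate 2 these counts were 3409 of 12574 (27.1%) and 3481 (27.7%), or 54.8% in all, at a median of -0.02, and 2519 of the higher and 2809 of the lower genes were called the same way in both. These shares are the background for the counts of gene groups below. When the model held only these 6 libraries, 510 genes were called, and with only 5 of them, again without replicate 2, the count was 4641. Of the genes chosen for naming that were called with all 24 libraries, 38 of 161 were called with the 6 libraries alone, and 147 of 162 with the 5. The groups did not overlap for 43% of the genes over all 6 libraries and for 62.4% without replicate 2.

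The largest rises were in genes that untreated replicates 1 and 3 hardly contained. SLC8A3, a sodium-calcium exchanger, stood at 119, 50.2 and 89.4 CPM in the TGFb-treated libraries, against 0, 1.18 and 0 CPM in the untreated ones. It had no count in untreated replicates 1 and 3, so that the rise with TGFb over those libraries was at least 901-fold, against a floor of 3 counts in all of them. TAGAP, a GTPase-activating protein, had 67.3, 40.2 and 59.2 CPM with TGFb and 0, 5.62 and 0 CPM untreated, at least 595-fold higher than in the same libraries. GASK1B, a Golgi-associated protein, and HMCN1, a giant matrix protein of basement membranes, were likewise at least 412-fold and 329.9-fold higher, and the bile acid transporter family member SLC10A4 at least 170.5-fold. All of these had counts in untreated replicate 2, at levels below every TGFb-treated library.

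Other large rises had a measurable untreated level. MAP1B, a microtubule-associated protein best known from neurons, had 746, 464 and 527 CPM with TGFb and 0.447, 33.8 and 0.803 CPM untreated. For MAP1B the log2 change was 5.57 ± 1.05 (adjusted p = 0.00042), and 10.01 ± 0.92 (adjusted p = 5.7e-08) without replicate 2. NPTX2, a secreted pentraxin, had 714, 501 and 449.6 CPM with TGFb and 0.609, 71.3 and 0.574 CPM untreated. For NPTX2 the log2 change was 4.48 ± 1.02 (adjusted p = 0.0017), and 9.83 ± 0.57 (adjusted p = 5e-10) without replicate 2. ADAM19, a membrane metalloprotease, had 256, 133 and 146 CPM with TGFb and 0, 8.02 and 0.115 CPM untreated. With 1 count in untreated replicates 1 and 3 together, its ratio of counts against those libraries was 5648 (95% interval of counting, 1013 to 223200). KCNK12, a potassium channel, had 111, 71.3 and 33.8 CPM with TGFb and 0, 7.13 and 0.115 CPM untreated, again with 1 count in those 2 libraries, a ratio of counts of 2308 (95% interval of counting, 414 to 91240). In each of these 4 genes the lowest treated library lay above untreated replicate 2, and replicate 2 lay above the other untreated libraries.

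Among the largest falls, CHST4, a sulfotransferase, had 0, 0 and 0.601 CPM with TGFb and 113, 2.33 and 36.8 CPM untreated. For CHST4 the log2 change was -7.93 ± 1.33 (adjusted p = 0.00018), and -8.50 ± 0.88 (adjusted p = 2.3e-07) without replicate 2. FGFBP1, which releases fibroblast growth factors from the matrix, had 0.192, 0.122 and 0.15 CPM with TGFb and 42.3, 5.73 and 30.3 CPM untreated. That is 3 counts in all with TGFb and a ratio of counts of 162 in favour of untreated (95% interval of counting, 55.3 to 785). MALL, a raft protein of the MAL family, had 0.384, 2.31 and 3.61 CPM with TGFb and 160.2, 18.4 and 129 CPM untreated. For MALL the log2 change was -5.53 ± 0.89 (adjusted p = 0.00012), and -6.03 ± 0.74 (adjusted p = 1.7e-06) without replicate 2. The other 9 of the 12 largest falls were the chromatin protein HMGB2, the cell cycle repressor E2F8 and 7 genes of mitosis, namely CCNB2, KIF18B, TROAP, HJURP, CENPA, KIF22 and NEK2. HMGB2 had 1.73, 1.1 and 4.66 CPM with TGFb and 128, 16.7 and 206 CPM untreated, with no overlap between the groups.

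**Figure D2:**
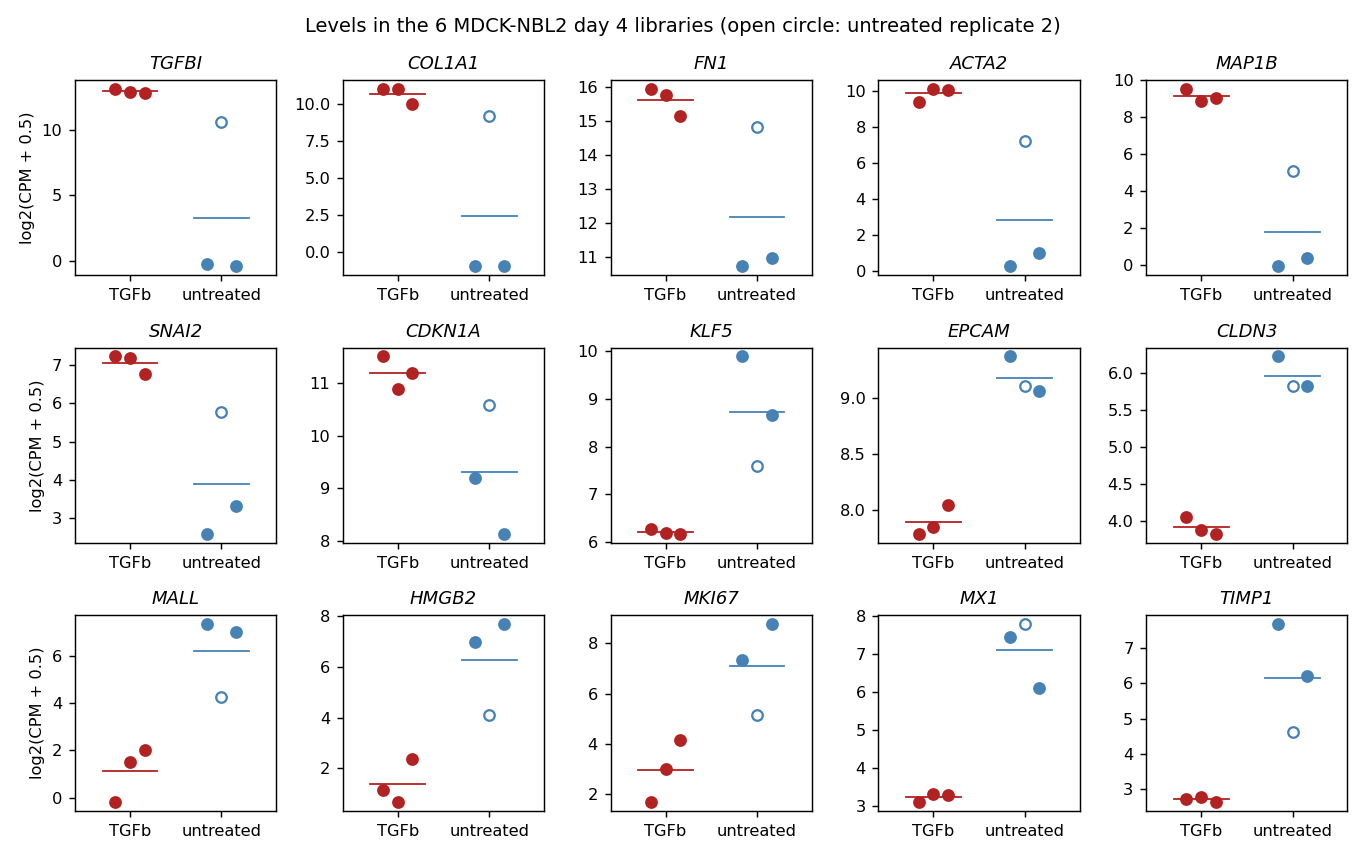
Level of 15 genes as log2(CPM + 0.5) in the 3 TGFb-treated (red, left) and 3 untreated (blue, right) MDCK-NBL2 libraries at day 4, each dot 1 library and each line the group mean, with untreated replicate 2 as an open circle. The open circle lies near or towards the treated libraries for genes such as TGFBI and HMGB2, and with the other untreated libraries for EPCAM, CLDN3 and MX1.

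Genes of TGFb signalling itself were among those called, from ligands to receptors and feedback genes. The share called was 50% for ligands, carriers and antagonists, against 44.3% of all genes. For receptors, SMADs and feedback genes it was 52%. Without replicate 2 these shares were 73.7% and 76%, against 54.8% of all genes. Among ligands, carriers and antagonists, 9 of 20 tested members were called higher and 1 lower, at a median log2 fold change of 0.84, and without replicate 2, 13 of 19 were higher and 1 lower, at a median of 1.07. TGFB3, a TGFb ligand, had 11.1, 15 and 6.76 CPM with TGFb and 0.203, 4.33 and 0.115 CPM untreated. For TGFB3 the log2 change was 2.68 ± 0.78 (adjusted p = 0.0096), and 5.89 ± 0.79 (adjusted p = 4.5e-06) without replicate 2. TGFB2, another ligand, had 139.5, 146 and 200.1 CPM with TGFb and 99.4, 96.2 and 74.9 CPM untreated. For TGFB2 the log2 change was 0.84 ± 0.21 (adjusted p = 0.0034), and 0.89 ± 0.24 (adjusted p = 0.004) without replicate 2. FSTL1, a secreted modulator of BMP signalling, rose to 1620, 1756 and 1515 CPM with TGFb, against 31.4, 909 and 57.4 CPM untreated. For FSTL1 the log2 change was 2.29 ± 0.74 (adjusted p = 0.018), and 5.21 ± 0.39 (adjusted p = 6.9e-09) without replicate 2. The call of FSTL1 was lost without untreated replicate 3, with an adjusted p = 0.057. LTBP1 and LTBP4, which tether latent TGFb to the matrix, moved in opposite directions. LTBP1, named after its values were seen, had 4246, 4447 and 3954 CPM with TGFb and 965, 3537 and 728 CPM untreated. For LTBP1 the log2 change was 1.27 ± 0.35 (adjusted p = 0.0068), and 2.31 ± 0.14 (adjusted p = 9e-10) without replicate 2. LTBP4 had 2.69, 1.83 and 3.01 CPM with TGFb and 28.5, 4.03 and 10.4 CPM untreated. For LTBP4 the log2 change was -2.54 ± 0.49 (adjusted p = 0.00048), and -3.01 ± 0.34 (adjusted p = 5.9e-07) without replicate 2. The activin chain INHBA, also named after its values were seen, was level with the treated libraries in untreated replicate 2: it had 406, 402 and 412 CPM with TGFb and 31, 408 and 57.2 CPM untreated. It was called without replicate 2 only, with a log2 change of 3.22 ± 0.55 (adjusted p = 6.4e-05) there.

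Among receptors, SMADs and feedback genes, 9 of 25 tested members were called higher and 4 lower, at a median log2 fold change of 0.58, and without replicate 2, 14 of 25 were higher and 5 lower, at a median of 0.93. BAMBI, a decoy receptor, had 253, 265 and 299.7 CPM with TGFb and 1.87, 137 and 1.95 CPM untreated. For BAMBI the log2 change was 2.51 ± 0.90 (adjusted p = 0.029), and 7.16 ± 0.38 (adjusted p = 2.2e-10) without replicate 2. The call of BAMBI was lost without TGFb replicate 2 or 3 or untreated replicate 1 or 3, with a highest adjusted p = 0.062. BMPR1B, a BMP receptor kinase, had 63.3, 57.5 and 79.2 CPM with TGFb and 15, 21.6 and 25 CPM untreated, and its groups did not overlap. For BMPR1B the log2 change was 1.71 ± 0.20 (adjusted p = 1.1e-05), and 1.76 ± 0.23 (adjusted p = 3.4e-06) without replicate 2. SMURF1, a ubiquitin ligase that removes SMADs and receptors, and the inhibitory SMAD7 were named after their values were seen. SMURF1 rose with a log2 fold change of 0.95 (adjusted p = 0.0027) and 1.45 (adjusted p = 4.3e-07) without replicate 2. SMAD7 had 39.7, 42.5 and 39.8 CPM with TGFb and 9.38, 45.6 and 5.39 CPM untreated, and was called without replicate 2 only. For SMAD7 the log2 change was 0.99 (adjusted p = 0.075), and 2.41 (adjusted p = 2.5e-08) without replicate 2. TGFBR2, the TGFb-binding receptor kinase, fell to 225, 186 and 244 CPM with TGFb, against 567, 214 and 344 CPM untreated. For TGFBR2 the log2 change was -0.78 ± 0.24 (adjusted p = 0.014), and -1.07 ± 0.20 (adjusted p = 0.00019) without replicate 2. Untreated replicate 2 lay inside the range of the treated libraries. The call of TGFBR2 was lost without TGFb replicate 2 or untreated replicate 1, with a highest adjusted p = 0.18. SMAD3, a main effector of the receptors, had 89.6, 97.7 and 78.2 CPM with TGFb and 210.3, 164 and 76.2 CPM untreated. For SMAD3 the log2 change was -0.77 ± 0.23 (adjusted p = 0.011), and -0.70 ± 0.25 (adjusted p = 0.023) without replicate 2. Untreated replicate 3 lay at the level of the treated libraries. The call of SMAD3 was lost without untreated replicate 1, with an adjusted p = 0.11.

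Of the EMT transcription factors, 4 of 13 tested members were called higher and 2 lower, at a median log2 fold change of 0.58, and without replicate 2, 7 of 13 were higher and 2 lower, at a median of 1.55. The share called was 46.2%, against 44.3% of all genes, and without replicate 2 it was 69.2%, against 54.8%. TWIST1 is not analysed here. SNAI2, a zinc finger repressor of epithelial genes, had 148, 143 and 108 CPM with TGFb and 5.52, 53.8 and 9.52 CPM untreated. For SNAI2 the log2 change was 2.51 ± 0.67 (adjusted p = 0.0056), and 4.20 ± 0.65 (adjusted p = 2.5e-05) without replicate 2. ZEB1, of a related repressor family, stood at 12.3, 4.02 and 4.36 CPM in the TGFb-treated libraries, against 0.122, 1.48 and 0.459 CPM in the untreated ones. For ZEB1 the log2 change was 3.18 ± 0.84 (adjusted p = 0.0051), and 4.86 ± 1.12 (adjusted p = 0.0012) without replicate 2. The repressors that rose were thus low to absent in untreated replicates 1 and 3. ZEB2, the paralog of ZEB1, had 3.45, 2.56 and 1.05 CPM with TGFb and 0.0406, 1.66 and 0 CPM untreated and was called without replicate 2 only, with 1 count in untreated replicates 1 and 3, a ratio of counts of 76.4 (95% interval of counting, 13.0 to 3082). RUNX1, a Runt factor, rose. For RUNX1 the log2 change was 1.31 ± 0.27 (adjusted p = 0.00094), and 1.72 ± 0.26 (adjusted p = 2.1e-05) without replicate 2. PRRX2 and SOX4 were called higher only without replicate 2, at 1.80 ± 0.33 (adjusted p = 0.00013) and 1.55 ± 0.41 (adjusted p = 0.0035). SOX9 had 40.3, 43 and 25.2 CPM with TGFb and 117, 56.3 and 39.6 CPM untreated. For SOX9 the log2 change was -0.98 ± 0.32 (adjusted p = 0.02), and -1.13 ± 0.35 (adjusted p = 0.0096) without replicate 2. Untreated replicate 3 lay inside the range of the treated libraries. The call of SOX9 was lost without TGFb replicate 3 or untreated replicate 1, with a highest adjusted p = 0.27. ETS1 also fell. For ETS1 the log2 change was -0.68 ± 0.21 (adjusted p = 0.013), and -0.58 ± 0.23 (adjusted p = 0.037) without replicate 2. The call of ETS1 was lost without TGFb replicate 1 or untreated replicate 1, with a highest adjusted p = 0.066. SNAI1, the best known of these repressors, had 27.6, 18 and 18.6 CPM with TGFb and 38.3, 18.5 and 19.6 CPM untreated, and its difference did not pass the test in either fit. For SNAI1 the log2 change was -0.26 ± 0.32 (adjusted p = 0.54), and -0.46 ± 0.34 (adjusted p = 0.26) without replicate 2. RUNX2, TCF3 and FOXC2 did not pass it either, and lay between -0.14 and 0.43 without replicate 2.

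PRRX1, a homeobox factor of mesenchymal cells, was uneven among the treated libraries. It had 37.2, 8.89 and 5.71 CPM with TGFb and 0.975, 3.25 and 0 CPM untreated. For PRRX1 the log2 change was 3.41 ± 1.02 (adjusted p = 0.011), and 4.69 ± 1.25 (adjusted p = 0.0038) without replicate 2. The call of PRRX1 was lost without TGFb replicate 1, with an adjusted p = 0.1. The log2 change without that library was 2.21 ± 1.03. With the AL58 and AL26 library numbers as a term in the model, the log2 fold change was 3.75 ± 1.18 (adjusted p = 0.016). Replicate 1 was also the highest for COL3A1, a chain of fibrillar collagen III, with 104, 6.33 and 12 CPM with TGFb and 0.122, 0 and 0 CPM untreated, and LAMA4, a laminin chain of vessel and muscle basement membranes, had 325, 60.7 and 64 CPM with TGFb and 0.122, 10.3 and 0.23 CPM untreated. The log2 change of LAMA4 was 5.24 ± 1.23 (adjusted p = 0.0031), and 3.99 ± 1.17 (adjusted p = 0.017) without TGFb replicate 1. Replicate 1 was again the highest of the libraries with TGFb and siCTR: PRRX1 had 33.9, 7.35 and 3.88 CPM, COL3A1 97.5, 6.39 and 10.7 CPM and LAMA4 178, 67.6 and 67.3 CPM there. The high library was replicate 1 in both groups, numbered AL58 in the first and AL26 in the siCTR group, where replicates 2 and 3 were numbered AL58. In untreated libraries at day 0 replicate 1 was the highest too, with PRRX1 at 7.07, 0.661 and 0.404 CPM, COL3A1 at 2.49, 0.0331 and 0 CPM and LAMA4 at 7.76, 0.496 and 1.48 CPM. In the untreated libraries at day 4, however, PRRX1 and LAMA4 were highest in replicate 2. Whether replicate 1 marks a shared culture is not stated, and its part in these values was not tested.

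Transcription factors that hold the epithelial state mostly fell. Of that list, which also holds splicing regulators, 2 of 16 tested members were called higher and 9 lower, at a median log2 fold change of -0.70, and without replicate 2, 4 of 16 were higher and 10 lower, at a median of -0.82. KLF5 had 76.9, 72.4 and 71.4 CPM with TGFb and 945, 193 and 405 CPM untreated. For KLF5 the log2 change was -2.81 ± 0.37 (adjusted p = 3.2e-05), and -3.20 ± 0.27 (adjusted p = 2.5e-08) without replicate 2. ELF3, an epithelial ETS factor, had 22.2, 25.2 and 35.9 CPM with TGFb and 322, 63.1 and 96.1 CPM untreated. For ELF3 the log2 change was -2.53 ± 0.44 (adjusted p = 0.00022), and -2.92 ± 0.38 (adjusted p = 3.5e-06) without replicate 2. GRHL2, which drives junction genes and was named after its values were seen, fell to 20.1, 23 and 24.6 CPM with TGFb, against 125, 53.1 and 82 CPM untreated. For GRHL2 the log2 change was -1.94 ± 0.31 (adjusted p = 0.00011), and -2.20 ± 0.29 (adjusted p = 3.5e-06) without replicate 2. In KLF5, ELF3 and GRHL2 every treated library lay below every untreated one, and among the untreated ones replicate 1 was the highest. Against this direction, OVOL2, known from other epithelia as a repressor of ZEB1, had 45.3, 48.9 and 54.7 CPM with TGFb and 27.2, 43.1 and 25.8 CPM untreated. For OVOL2 the log2 change was 0.63 ± 0.15 (adjusted p = 0.0023), and 0.90 ± 0.11 (adjusted p = 2.1e-06) without replicate 2.

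Junction genes were split. Of cadherins, desmosomal and other adhesion proteins, the called ones were 4 higher and 4 lower of 20 (median -0.01), and without replicate 2, 5 higher and 5 lower of 20 (median 0.10), a share near that of all genes. EPCAM, an epithelial adhesion molecule, had 219.7, 230.3 and 263 CPM with TGFb and 664, 552 and 535 CPM untreated. For EPCAM the log2 change was -1.30 ± 0.20 (adjusted p = 0.00011), and -1.34 ± 0.22 (adjusted p = 4.8e-05) without replicate 2. The desmosome linker PPL fell in the same way. For PPL the log2 change was -1.27 (adjusted p = 0.00015), and -1.34 (adjusted p = 6e-05) without replicate 2. E-cadherin, CDH1, named after its values were seen, was still at 882, 879 and 943 CPM with TGFb, against 1776, 1158 and 1096 CPM untreated. For CDH1 the log2 change was -0.58 ± 0.16 (adjusted p = 0.0075), and -0.67 ± 0.17 (adjusted p = 0.0021) without replicate 2. The call of CDH1 was lost without untreated replicate 1, with an adjusted p = 0.075. CDH2, N-cadherin, named in the same way, had 10.4, 2.68 and 4.66 CPM with TGFb and 2.11, 1.26 and 3.67 CPM untreated, a difference of 1.38 (adjusted p = 0.27) and 1.04 (adjusted p = 0.44) without replicate 2. The desmosomal genes DSP and DSC3 went the other way: DSP, the plaque protein desmoplakin, had 3494, 2687 and 2642 CPM with TGFb and 1151, 1897 and 679 CPM untreated. For DSP the log2 change was 1.24 ± 0.24 (adjusted p = 0.0005), and 1.68 ± 0.20 (adjusted p = 1.1e-06) without replicate 2. DSC3 had 258, 337 and 352 CPM with TGFb and 146, 201 and 137 CPM untreated. For DSC3 the log2 change was 0.97 ± 0.17 (adjusted p = 0.00022), and 1.16 ± 0.17 (adjusted p = 1.2e-05) without replicate 2.

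Among tight junction proteins the called members were 3 higher and 6 lower of 19 (median -0.39), and without replicate 2, 4 higher and 6 lower of 19 (median -0.48). With CLDN2, which had no count with TGFb and 3 counts untreated, set at its bound, these medians were -0.33 and -0.28. The untreated libraries were deeper, so this bound lay on the side of a rise. It is a limit and no estimate of the change, and the shift of the medians does not show a weaker fall. CLDN3, a sealing claudin, had 16.1, 14.2 and 13.7 CPM with TGFb and 74.5, 56.3 and 56.5 CPM untreated, and replicate 2 lay with the other untreated libraries. For CLDN3 the log2 change was -2.09 ± 0.34 (adjusted p = 0.00012), and -2.17 ± 0.36 (adjusted p = 5.3e-05) without replicate 2. TJP3, a scaffold of the junction, fell. For TJP3 the log2 change was -1.88 ± 0.35 (adjusted p = 0.00038), and -1.90 ± 0.38 (adjusted p = 0.00031) without replicate 2. The scaffold CGN, cingulin, had 116, 74.8 and 116 CPM with TGFb and 387, 186 and 264 CPM untreated. For CGN the log2 change was -1.45 (adjusted p = 0.00031), and -1.68 (adjusted p = 1.8e-05) without replicate 2. Its paralog CGNL1 had 10.7, 6.09 and 4.51 CPM with TGFb and 48.4, 11.7 and 5.28 CPM untreated (log2 change -1.66 with adjusted p = 0.04, and -1.99 with adjusted p = 0.014 without replicate 2), both named after their values were seen. The call of CGNL1 was lost without TGFb replicate 2 or 3 or untreated replicate 1, with a highest adjusted p = 0.67. A few junction genes rose by little. TJP1, the scaffold ZO-1, named after its values were seen, rose. For TJP1 the log2 change was 0.37 (adjusted p = 0.019), and 0.55 (adjusted p = 0.00031) without replicate 2. The call of TJP1 was lost without TGFb replicate 3 or untreated replicate 1 or 3, with a highest adjusted p = 0.11. CXADR, an adhesion receptor, rose as well. For CXADR the log2 change was 0.51 (adjusted p = 0.0012), and 0.60 (adjusted p = 0.00018) without replicate 2. Apical polarity and trafficking genes gave 3 higher and 7 lower of 24 (median -0.38), and without replicate 2, 3 higher and 8 lower of 24 (median -0.46). The apical raft proteins MAL2 and MAL fell, MAL2 to 7.29, 9.87 and 11.7 CPM with TGFb, against 46.3, 19.1 and 53.2 CPM untreated. For MAL2 the log2 change was -2.02 ± 0.31 (adjusted p = 9.2e-05), and -2.36 ± 0.24 (adjusted p = 2.1e-07) without replicate 2. MAL fell as well. For MAL the log2 change was -1.43 (adjusted p = 0.00022), and -1.28 (adjusted p = 0.00037) without replicate 2. SYTL1 and SYTL2, which dock Rab27 vesicles, rose. For SYTL1 the log2 change was 1.38 (adjusted p = 0.005), and 1.50 (adjusted p = 0.0049) without replicate 2. For SYTL2 the log2 change was 1.05 (adjusted p = 0.0036), and 1.11 (adjusted p = 0.0041) without replicate 2.

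Of intermediate filament genes the called ones were 2 higher and 2 lower of 9 (median 0.07), and 3 higher and 2 lower of 9 (median -0.07) without replicate 2. These shares, 44.4% and 55.6%, were near the 44.3% and 54.8% of all genes. KRT8 and KRT18 are not analysed here. KRT19, a keratin of simple epithelia, had 1826, 2226 and 1657 CPM with TGFb and 4581, 3582 and 2265 CPM untreated. For KRT19 the log2 change was -0.87 ± 0.30 (adjusted p = 0.024), and -0.85 ± 0.33 (adjusted p = 0.034) without replicate 2. The call of KRT19 was lost without TGFb replicate 1 or 3 or untreated replicate 1, with a highest adjusted p = 0.13. SYNM, a filament protein of muscle, had 22.6, 17.3 and 20.9 CPM with TGFb and 1.87, 5.84 and 1.38 CPM untreated. For SYNM the log2 change was 2.66 ± 0.42 (adjusted p = 0.00011), and 3.58 ± 0.39 (adjusted p = 4.3e-07) without replicate 2. VIM, the mesenchymal filament vimentin, was named after its values were seen. It had 3055, 3178 and 3532 CPM with TGFb and 2833, 1913 and 4586 CPM untreated, and the groups overlapped, with a log2 fold change of 0.07 (adjusted p = 0.86) and -0.19 (adjusted p = 0.55) without replicate 2, so that its sign turned with the libraries used.

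**Figure D3:**
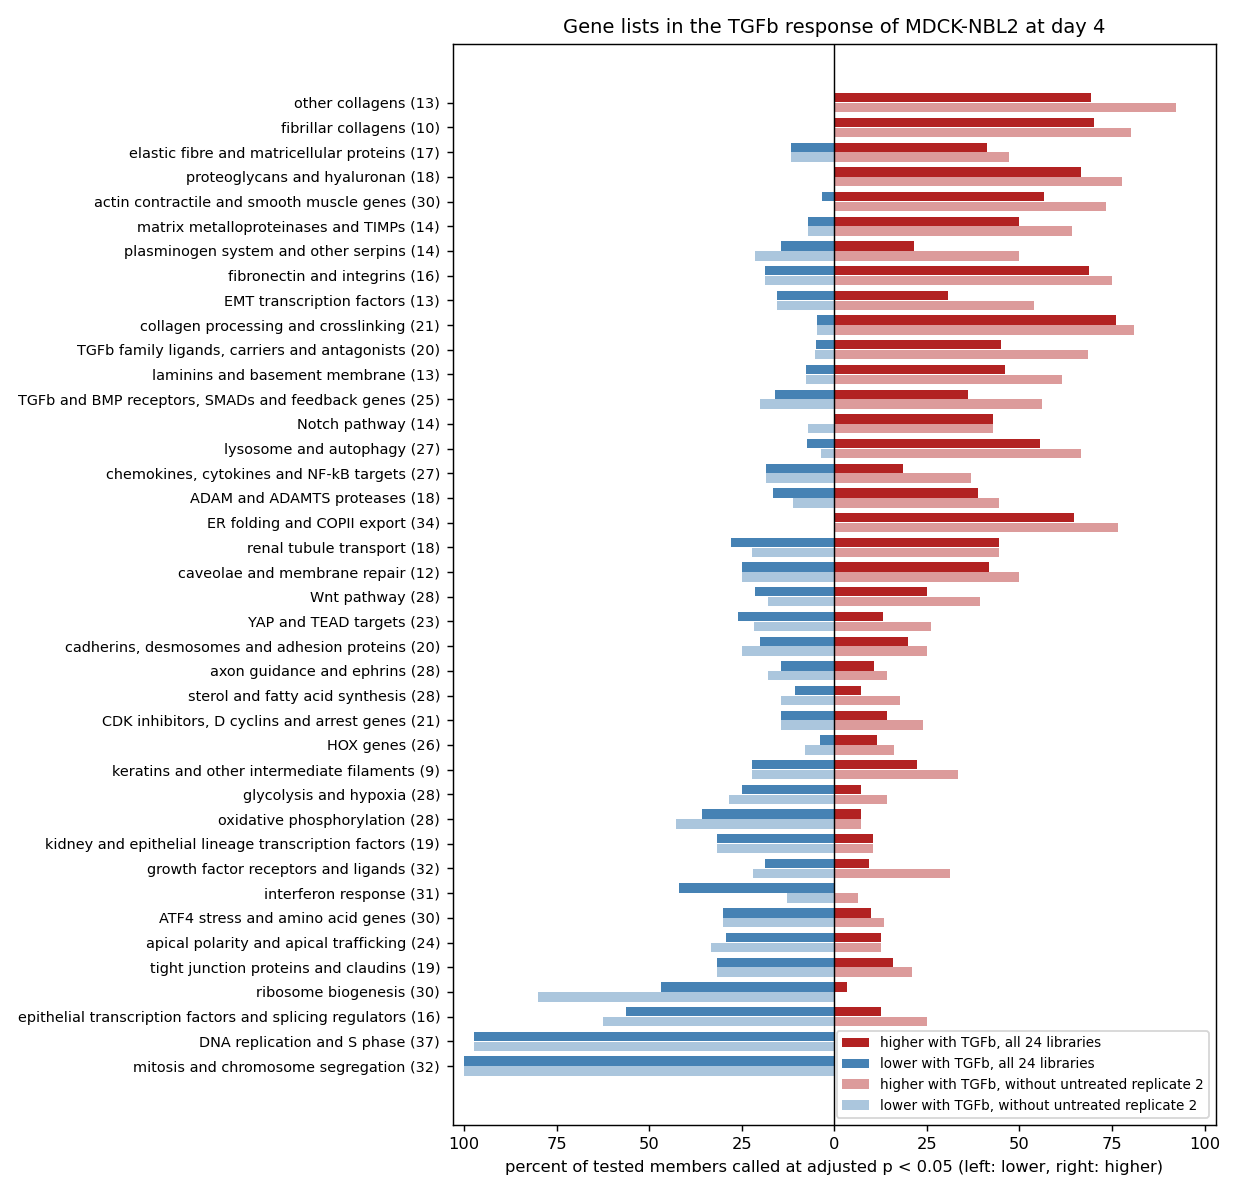
Share of the tested members of 40 gene lists called higher (red, right) or lower (blue, left) with TGFb, in percent, with all 24 libraries (dark) and without untreated replicate 2 (light), sorted by the median log2 fold change without it and with the number tested in brackets. Collagen and contractile lists stand at the top, and mitosis and DNA replication at the bottom with 32 of 32 and 36 of 37 members lower.

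Matrix genes rose broadly. Of fibrillar collagens, 7 of 10 tested members were called higher and 0 lower, at a median log2 fold change of 1.75, and without replicate 2, 8 of 10 were higher and 0 lower, at a median of 2.65. COL1A1, a chain of collagen I and named after its values were seen, had 2105, 2147 and 1062 CPM with TGFb and 0, 596 and 0 CPM untreated. With no count in untreated replicates 1 and 3 it was at least 19750-fold higher with TGFb than in those libraries, while over all untreated libraries its difference was not called (adjusted p = 0.1). COL1A2, its partner chain, had 2815, 1383 and 1025 CPM with TGFb and 15, 232 and 32.4 CPM untreated. For COL1A2 the log2 change was 4.22 ± 0.94 (adjusted p = 0.0029), and 6.23 ± 0.85 (adjusted p = 3.4e-05) without replicate 2. COL3A1, with 3 counts in the untreated libraries together, had a ratio of counts of 678, for which counting alone gives 95% bounds of 231 and 3295 (adjusted p = 0.0027). The fitted log2 change of COL3A1, which at so few counts depends on the prior count, was 9.44 ± 2.09, and 7.30 ± 1.95 (adjusted p = 0.012) without TGFb replicate 1. Among other collagens, 9 of 13 tested members were called higher and 0 lower, at a median log2 fold change of 2.27, and without replicate 2, 12 of 13 were higher and 0 lower, at a median of 3.81. COL15A1, a basement membrane zone collagen, had 331, 287 and 146 CPM with TGFb and 1.38, 85 and 4.02 CPM untreated. For COL15A1 the log2 change was 3.05 ± 0.96 (adjusted p = 0.015), and 6.77 ± 0.88 (adjusted p = 3.4e-06) without replicate 2. COL6A1, of the beaded filament collagen VI, had 189.9, 92.6 and 75.6 CPM with TGFb and 10.2, 47.4 and 6.2 CPM untreated. For COL6A1 the log2 change was 2.45 ± 0.56 (adjusted p = 0.0019), and 3.81 ± 0.49 (adjusted p = 3.1e-06) without replicate 2. No collagen of either list was called lower in these fits.

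Enzymes that modify, cut and crosslink collagen rose with it: 16 of 21 tested members were called higher and 1 lower, at a median log2 fold change of 1.05, and without replicate 2, 17 of 21 were higher and 1 lower, at a median of 1.48. PLOD2, a lysyl hydroxylase, had 1258, 814 and 694 CPM with TGFb and 64.5, 297 and 57.8 CPM untreated. For PLOD2 the log2 change was 2.72 ± 0.48 (adjusted p = 0.00026), and 3.91 ± 0.37 (adjusted p = 7.5e-08) without replicate 2. ADAMTS2, which removes the amino-terminal propeptide of fibrillar collagens, had 70.4, 61.1 and 42.5 CPM with TGFb and 0.325, 11.5 and 0 CPM untreated. For ADAMTS2 the log2 change was 3.74 ± 0.80 (adjusted p = 0.0011), and 7.90 ± 0.67 (adjusted p = 2.3e-08) without replicate 2. Of proteoglycan and hyaluronan genes, 12 of 18 tested members were called higher and 0 lower, at a median log2 fold change of 1.32, and without replicate 2, 14 of 18 were higher and 0 lower, at a median of 2.03. HAPLN3, a link protein, had 21.5, 8.28 and 5.41 CPM with TGFb and 0.0406, 1.15 and 0 CPM untreated (log2 change 4.58 ± 0.74 with adjusted p = 0.00013). With 1 count in untreated replicates 1 and 3, its ratio of counts against them was 359 (95% interval of counting, 63.7 to 14230). Of laminins and basement membrane genes, 6 of 13 tested members were called higher and 1 lower, at a median log2 fold change of 0.89, and without replicate 2, 8 of 13 were higher and 1 lower, at a median of 0.98. NID2, nidogen, had 1183, 915 and 1163 CPM with TGFb and 66.3, 467 and 96.4 CPM untreated. For NID2 the log2 change was 2.37 ± 0.51 (adjusted p = 0.0011), and 3.74 ± 0.34 (adjusted p = 4.5e-08) without replicate 2. LAMB2 fell. For LAMB2 the log2 change was -0.51 (adjusted p = 0.018), and -0.58 (adjusted p = 0.01) without replicate 2. The call of LAMB2 was lost without TGFb replicate 1 or untreated replicate 1, with a highest adjusted p = 0.14.

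Elastic fibre and matricellular genes were less uniform, with 7 higher and 2 lower of 17 (median 0.84), and 8 higher and 2 lower of 17 (median 2.23) without replicate 2. TGFBI, a secreted adhesion protein named for its induction by TGFb and picked here after its values were seen, had 9515, 7799 and 7495 CPM with TGFb and 0.325, 1583 and 0.23 CPM untreated. It was not called with all libraries and rose without replicate 2. For TGFBI the log2 change was 3.97 ± 1.64 (adjusted p = 0.056), and 14.72 ± 1.48 (adjusted p = 1.6e-07) without replicate 2. FBN1, the microfibril protein that also holds latent TGFb, and SPARC, a collagen chaperone, were picked in the same way. FBN1 had 11.1, 8.77 and 5.56 CPM with TGFb and 0, 0.444 and 0 CPM untreated, at least 92.5-fold higher with TGFb than in untreated replicates 1 and 3, and SPARC had 3.07, 2.07 and 1.8 CPM with TGFb and 0, 0.148 and 0 CPM untreated, at least 24.9-fold higher. FBLN1, a fibulin of elastic fibres, fell to 14.4, 17.4 and 18.3 CPM with TGFb, against 48.8, 32.9 and 36.9 CPM untreated. For FBLN1 the log2 change was -1.24 ± 0.18 (adjusted p = 5.4e-05), and -1.36 ± 0.18 (adjusted p = 4.5e-06) without replicate 2.

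Most tested genes of the fibronectin and integrin list rose too. Of fibronectin and integrins, 11 of 16 tested members were called higher and 3 lower, at a median log2 fold change of 0.94, and without replicate 2, 12 of 16 were higher and 3 lower, at a median of 1.66. FN1, fibronectin, had 63120, 55010 and 36450 CPM with TGFb and 1701, 28840 and 2018 CPM untreated. For FN1 the log2 change was 2.25 ± 0.71 (adjusted p = 0.015), and 4.79 ± 0.42 (adjusted p = 3.6e-08) without replicate 2. In the model of the 6 libraries alone its adjusted p was 0.19. ITGA5, the alpha chain of the fibronectin receptor, had 3107, 2269 and 2173 CPM with TGFb and 187, 1056 and 76.9 CPM untreated. For ITGA5 the log2 change was 2.51 ± 0.66 (adjusted p = 0.0047), and 4.24 ± 0.56 (adjusted p = 3.9e-06) without replicate 2. ITGA9, a chain of another integrin, fell. For ITGA9 the log2 change was -1.32 ± 0.21 (adjusted p = 0.00011), and -1.49 ± 0.20 (adjusted p = 5.3e-06) without replicate 2. Proteases and their inhibitors did not move as a block. Metalloproteinases and TIMPs gave 7 higher and 1 lower of 14 (median 0.99), and 9 higher and 1 lower of 14 (median 1.74) without replicate 2. The inhibitors TIMP2 and TIMP3 were higher. For TIMP2 the log2 change was 1.47 ± 0.35 (adjusted p = 0.0025), and 2.27 ± 0.26 (adjusted p = 7.7e-07) without replicate 2. For TIMP3 the log2 change was 1.35 ± 0.50 (adjusted p = 0.033), and 2.31 ± 0.47 (adjusted p = 0.00036) without replicate 2. The call of TIMP3 was lost without TGFb replicate 2 or 3 or untreated replicate 1 or 3, with a highest adjusted p = 0.13. TIMP1 was lower, at 6.14, 6.33 and 5.71 CPM with TGFb and 204, 24 and 72.7 CPM untreated, and its groups did not overlap. For TIMP1 the log2 change was -4.04 ± 0.68 (adjusted p = 0.00018), and -4.51 ± 0.57 (adjusted p = 2.4e-06) without replicate 2.

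ADAM and ADAMTS proteases gave 7 higher and 3 lower of 18 (median 0.25), and 8 higher and 2 lower of 18 (median 0.56) without replicate 2. ADAM12, a metalloprotease of mesenchymal cells, had 29.2, 31.9 and 35.2 CPM with TGFb and 1.62, 17.6 and 7 CPM untreated. For ADAM12 the log2 change was 1.86 ± 0.61 (adjusted p = 0.024), and 3.06 ± 0.59 (adjusted p = 0.00063) without replicate 2. The call of ADAM12 was lost without TGFb replicate 3 or untreated replicate 3, with a highest adjusted p = 0.068. ADAMTS1, which cleaves proteoglycans, had 5.56, 5.6 and 12.9 CPM with TGFb and 119, 2 and 54.6 CPM untreated. For ADAMTS1 the log2 change was -2.87 ± 0.85 (adjusted p = 0.011), and -3.44 ± 0.54 (adjusted p = 2.9e-05) without replicate 2. Here untreated replicate 2 was the lowest of the 6 libraries. The call of ADAMTS1 was lost without untreated replicate 1, with an adjusted p = 0.1. The plasminogen system and other serpins gave 3 higher and 2 lower of 14 (median 0.55), and 7 higher and 3 lower of 14 (median 1.67) without replicate 2, the list in which that library lay nearest the treated ones among the matrix lists (median position 90.5%). TFPI2, a protease inhibitor of the matrix, rose. For TFPI2 the log2 change was 2.59 ± 0.72 (adjusted p = 0.0069), and 5.17 ± 0.43 (adjusted p = 1.9e-08) without replicate 2. SERPINE2, an inhibitor of thrombin and urokinase, fell to 37.6, 42.1 and 39.2 CPM with TGFb, against 198, 114 and 253 CPM untreated. For SERPINE2 the log2 change was -2.24 ± 0.29 (adjusted p = 3.1e-05), and -2.51 ± 0.27 (adjusted p = 4.3e-07) without replicate 2.

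Genes of actin contraction rose as broadly: 17 of 30 tested members were called higher and 1 lower, at a median log2 fold change of 1.23, and without replicate 2, 22 of 30 were higher and 0 lower, at a median of 2.02. ACTA2, smooth muscle actin and a marker of myofibroblasts, had 690.1, 1142 and 1093 CPM with TGFb and 0.69, 148 and 1.49 CPM untreated. For ACTA2 the log2 change was 4.26 ± 1.15 (adjusted p = 0.0059), and 9.998 ± 0.84 (adjusted p = 2.1e-08) without replicate 2. ACTG2, the enteric smooth muscle actin, had 20.5, 23.4 and 26 CPM with TGFb and 0.0406, 1.55 and 0 CPM untreated, and with 1 count in untreated replicates 1 and 3 its ratio of counts against them was 784 (95% interval of counting, 140 to 31030). PDLIM3, a Z-line protein, had 12.1, 6.09 and 15.8 CPM with TGFb and 0, 0.813 and 0.115 CPM untreated (log2 change 4.93 ± 0.89 with adjusted p = 0.00041), and a ratio of counts of 362 against untreated replicates 1 and 3 (95% interval of counting, 64.3 to 14360). CALD1, caldesmon, and TAGLN, transgelin, bind actin in smooth muscle and were picked after their values were seen. CALD1 had 548, 626 and 721 CPM with TGFb and 0.772, 126 and 1.61 CPM untreated. For CALD1 the log2 change was 3.86 ± 1.18 (adjusted p = 0.015), and 9.24 ± 0.73 (adjusted p = 7.8e-08) without replicate 2. TAGLN had 668, 1201 and 1007 CPM with TGFb and 1.46, 399 and 1.72 CPM untreated, called without replicate 2 only. For TAGLN the log2 change was 2.83 (adjusted p = 0.077), and 9.26 (adjusted p = 1.7e-06) without replicate 2. Caveola and membrane repair genes were split, at 5 higher and 3 lower of 12 (median 0.37) and 6 higher and 3 lower of 12 (median 0.39) without replicate 2. DYSF, dysferlin, which reseals muscle membranes, had 43.2, 17.1 and 12.5 CPM with TGFb and 0.244, 0.517 and 0.115 CPM untreated. For DYSF the log2 change was 6.10 ± 0.93 (adjusted p = 8.9e-05), and 6.78 ± 1.19 (adjusted p = 9e-05) without replicate 2. CAV1, the coat protein of caveolae, had 114, 149 and 146 CPM with TGFb and 569, 203 and 576 CPM untreated. For CAV1 the log2 change was -1.72 ± 0.26 (adjusted p = 9.2e-05), and -2.07 ± 0.16 (adjusted p = 9.2e-09) without replicate 2. Untreated replicate 2 lay near the treated libraries.

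Most tested genes of the secretory route that collagen takes rose in small steps. Of ER folding and COPII export genes, 22 of 34 tested members were called higher and 0 lower, at a median log2 fold change of 0.44, and without replicate 2, 26 of 34 were higher and 0 lower, at a median of 0.55. The ER folding genes HSPA5, HSP90B1 and PDIA4 were called in neither fit. With all libraries their log2 changes were 0.10 (adjusted p = 0.64), -0.01 (adjusted p = 0.98) and -0.02 (adjusted p = 0.93). CREB3L1 and CREB3L2, membrane-bound factors that drive secretory genes, rose most among the named members: CREB3L1 had 83.1, 64.2 and 63.1 CPM with TGFb and 16.9, 33.1 and 4.13 CPM untreated. For CREB3L1 the log2 change was 1.92 ± 0.43 (adjusted p = 0.0015), and 2.64 ± 0.41 (adjusted p = 2.5e-05) without replicate 2. CREB3L2 had 118, 109.9 and 117 CPM with TGFb and 32.8, 70.0 and 22.9 CPM untreated. For CREB3L2 the log2 change was 1.44 ± 0.27 (adjusted p = 0.00042), and 2.03 ± 0.20 (adjusted p = 1.7e-07) without replicate 2. MIA3, which loads procollagen into transport carriers, and SEC23A, a COPII coat protein, were named after their values were seen. MIA3 had 444, 354 and 352 CPM with TGFb and 133, 198 and 138 CPM untreated. For MIA3 the log2 change was 1.29 ± 0.13 (adjusted p = 5.4e-06), and 1.50 ± 0.11 (adjusted p = 6.9e-09) without replicate 2. SEC23A had 371, 382 and 348 CPM with TGFb and 117, 230.0 and 128 CPM untreated. For SEC23A the log2 change was 1.21 ± 0.18 (adjusted p = 7.7e-05), and 1.58 ± 0.13 (adjusted p = 1.4e-08) without replicate 2. Lysosome and autophagy genes gave 15 higher and 2 lower of 27 (median 0.59), and 18 higher and 1 lower of 27 (median 0.76) without replicate 2. GLB1, the lysosomal beta-galactosidase, had 137, 117 and 112 CPM with TGFb and 39.1, 62.9 and 46.9 CPM untreated. For GLB1 the log2 change was 1.29 ± 0.17 (adjusted p = 3.8e-05), and 1.50 ± 0.18 (adjusted p = 1e-06) without replicate 2. WIPI1, an autophagy protein, had 35.3, 31.1 and 31.6 CPM with TGFb and 8.77, 24.5 and 1.84 CPM untreated. For WIPI1 the log2 change was 1.43 ± 0.45 (adjusted p = 0.015), and 2.49 ± 0.37 (adjusted p = 1.3e-05) without replicate 2. The call of WIPI1 was lost without untreated replicate 1, with an adjusted p = 0.067. GUSB, the beta-glucuronidase, was lower. For GUSB the log2 change was -0.73 (adjusted p = 0.0068), and -0.68 (adjusted p = 0.014) without replicate 2. The call of GUSB was lost without untreated replicate 1, with an adjusted p = 0.064.

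Signalling lists other than TGFb were called at shares near or below that of all genes. Wnt pathway genes gave 7 higher and 6 lower of 28 (median 0.10), and 11 higher and 5 lower of 28 (median 0.23) without replicate 2. The ligands WNT5A and WNT2 rose, WNT5A to 42.8, 28 and 21.5 CPM with TGFb, against 2.76, 11.5 and 0.688 CPM untreated. For WNT5A the log2 change was 2.53 ± 0.61 (adjusted p = 0.0028), and 3.94 ± 0.60 (adjusted p = 1.8e-05) without replicate 2. WNT2 rose as well. For WNT2 the log2 change was 2.31 ± 0.41 (adjusted p = 0.00029), and 3.28 ± 0.37 (adjusted p = 6.8e-07) without replicate 2. LGR4, a receptor for R-spondins, fell. For LGR4 the log2 change was -1.23 (adjusted p = 0.00032), and -1.52 (adjusted p = 2.8e-07) without replicate 2. The factor TCF7 fell. For TCF7 the log2 change was -1.09 (adjusted p = 6.7e-05), and -1.07 (adjusted p = 4.5e-05) without replicate 2. Of Notch pathway genes the called ones were 6 higher and 0 lower of 14 (median 0.37), and 6 higher and 1 lower of 14 (median 0.77) without replicate 2. JAG1, a Notch ligand, had 1504, 1087 and 1230 CPM with TGFb and 238, 530.1 and 140.4 CPM untreated. For JAG1 the log2 change was 2.07 ± 0.40 (adjusted p = 0.00055), and 2.74 ± 0.39 (adjusted p = 9.6e-06) without replicate 2. LFNG, the glycosyltransferase that tunes Notch for its ligands, had 99.6, 99.4 and 98.3 CPM with TGFb and 3.45, 36.7 and 10.2 CPM untreated. For LFNG the log2 change was 2.54 ± 0.60 (adjusted p = 0.0024), and 3.98 ± 0.57 (adjusted p = 1.1e-05) without replicate 2. YAP and TEAD targets gave 3 higher and 6 lower of 23 (median 0.10) and 6 higher and 5 lower of 23 (median 0.16) without replicate 2, and AMOTL1, an angiomotin that binds YAP, rose. For AMOTL1 the log2 change was 0.94 (adjusted p = 0.00021), and 1.07 (adjusted p = 3.8e-05) without replicate 2.

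Growth factors and their receptors gave 3 higher and 6 lower of 32 (median -0.11), and 10 higher and 7 lower of 32 (median -0.34) without replicate 2. FLT1, a VEGF receptor, had 346, 348 and 423 CPM with TGFb and 145, 204 and 102 CPM untreated. For FLT1 the log2 change was 1.31 ± 0.21 (adjusted p = 0.00013), and 1.59 ± 0.21 (adjusted p = 3.3e-06) without replicate 2. FGFR2, a receptor whose epithelial form binds mesenchymal FGFs, had 19.2, 28.6 and 28.3 CPM with TGFb and 51.9, 58.8 and 67.9 CPM untreated. For FGFR2 the log2 change was -1.22 ± 0.22 (adjusted p = 0.00027), and -1.23 ± 0.24 (adjusted p = 0.00025) without replicate 2. MET, the HGF receptor, had 434, 392 and 463 CPM with TGFb and 1016, 404 and 1032 CPM untreated. For MET the log2 change was -0.93 ± 0.24 (adjusted p = 0.0042), and -1.25 ± 0.15 (adjusted p = 1.4e-06) without replicate 2. Untreated replicate 2 was at the level of the treated libraries. Axon guidance and ephrin genes gave 3 higher and 4 lower of 28 (median 0.10), and 4 higher and 5 lower of 28 (median 0.09) without replicate 2, and L1CAM, an adhesion molecule, rose. For L1CAM the log2 change was 0.79 (adjusted p = 0.0017), and 0.90 (adjusted p = 0.00064) without replicate 2. SEMA5A, a semaphorin, and UNC5B, a netrin receptor, were lower. For SEMA5A the log2 change was -1.40 (adjusted p = 0.0043), and -1.69 (adjusted p = 0.00042) without replicate 2. For UNC5B the log2 change was -0.99 (adjusted p = 0.0051), and -1.21 (adjusted p = 0.00065) without replicate 2. The call of SEMA5A was lost without untreated replicate 1, with an adjusted p = 0.066. The call of UNC5B was lost without untreated replicate 1, with an adjusted p = 0.068. Chemokines, cytokines and NF-kB targets gave 5 higher and 5 lower of 27 (median -0.06), and 10 higher and 5 lower of 27 (median 0.62) without replicate 2. ICAM1, a ligand of leukocyte integrins, had 623, 543 and 644 CPM with TGFb and 76.4, 248 and 59.8 CPM untreated. For ICAM1 the log2 change was 2.23 ± 0.40 (adjusted p = 0.00032), and 3.14 ± 0.33 (adjusted p = 2.4e-07) without replicate 2. IL34, a ligand of the CSF1 receptor, had 17.5, 19.5 and 23.3 CPM with TGFb and 1.01, 7.95 and 0.688 CPM untreated. For IL34 the log2 change was 2.53 ± 0.53 (adjusted p = 0.00091), and 4.46 ± 0.37 (adjusted p = 1.7e-08) without replicate 2. IL11, a cytokine known from fibrosis and named after its values were seen, had 22.1, 20.3 and 12.9 CPM with TGFb and 0.609, 17.2 and 0.688 CPM untreated and was called without replicate 2 only. For IL11 the log2 change was 1.51 (adjusted p = 0.1), and 4.84 (adjusted p = 4.9e-07) without replicate 2. PTGES, a prostaglandin E synthase, had 1.15, 0.853 and 1.8 CPM with TGFb and 25, 2.88 and 12.5 CPM untreated. For PTGES the log2 change was -3.41 ± 0.66 (adjusted p = 0.00049), and -3.91 ± 0.51 (adjusted p = 3.4e-06) without replicate 2.

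Genes of mitosis and DNA replication fell with 1 exception. All 32 tested genes of mitosis and chromosome segregation were called lower in both fits, at a median log2 fold change of -3.33, and -3.81 without replicate 2. Of DNA replication and S phase genes, 0 of 37 tested members were called higher and 36 lower, at a median log2 fold change of -2.28, and without replicate 2, 0 of 37 were higher and 36 lower, at a median of -2.73. The member that was not called was CCNE1, a cyclin of the G1/S transition. For CCNE1 the log2 change was -0.48 (adjusted p = 0.17), and -0.62 (adjusted p = 0.095) without replicate 2. CCNB2, a mitotic cyclin, had 0.192, 0.853 and 1.95 CPM with TGFb and 24.5, 6.28 and 79.6 CPM untreated. For CCNB2 the log2 change was -5.10 ± 0.77 (adjusted p = 8.1e-05), and -5.61 ± 0.54 (adjusted p = 1.1e-07) without replicate 2. CDC6, which loads the replicative helicase, had 2.69, 4.99 and 5.26 CPM with TGFb and 82.3, 9.46 and 97.2 CPM untreated. For CDC6 the log2 change was -3.83 ± 0.60 (adjusted p = 0.00011), and -4.34 ± 0.35 (adjusted p = 1.3e-08) without replicate 2. MKI67, the proliferation antigen, named after its values were seen, had 2.69, 7.43 and 17.3 CPM with TGFb and 162, 35.3 and 435 CPM untreated. For MKI67 the log2 change was -4.50 ± 0.73 (adjusted p = 0.00013), and -5.00 ± 0.56 (adjusted p = 6.2e-07) without replicate 2. In each of these 3 genes untreated replicate 2 lay between the treated libraries and untreated replicates 1 and 3. Of CDK inhibitors, D cyclins and arrest genes the called ones were 3 higher and 3 lower of 21 (median 0.13), and 5 higher and 3 lower of 21 (median 0.02) without replicate 2. CDKN1A, the CDK inhibitor p21, had 2906, 1901 and 2335 CPM with TGFb and 588, 1539 and 279.9 CPM untreated. For CDKN1A the log2 change was 1.57 ± 0.41 (adjusted p = 0.0046), and 2.45 ± 0.34 (adjusted p = 7.6e-06) without replicate 2. RRM2B, a subunit of ribonucleotide reductase, rose. For RRM2B the log2 change was 1.53 (adjusted p = 5.6e-05), and 1.97 (adjusted p = 3.5e-08) without replicate 2.

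Genes that build ribosomes fell as well, in numbers that depended on replicate 2: the called ones were 1 higher and 14 lower of 30 (median -0.52), and 0 higher and 24 lower of 30 (median -0.74) without it. Their summed level was 2325, 2728 and 2915 CPM with TGFb and 4143, 2538 and 6511 CPM untreated, so that replicate 2 lay inside the range of the treated libraries. FBL, the methyltransferase fibrillarin of the nucleolus, had 47, 65.3 and 70.3 CPM with TGFb and 172, 99.9 and 265 CPM untreated. For FBL the log2 change was -1.55 ± 0.26 (adjusted p = 0.00016), and -1.84 ± 0.21 (adjusted p = 8.9e-07) without replicate 2. NOLC1, a nucleolar chaperone, had 57, 63.3 and 65.5 CPM with TGFb and 136, 66.2 and 225 CPM untreated. For NOLC1 the log2 change was -1.20 ± 0.28 (adjusted p = 0.0024), and -1.54 ± 0.21 (adjusted p = 5.7e-06) without replicate 2. NPM1, nucleophosmin, named after its values were seen, had 422, 528 and 554 CPM with TGFb and 977, 595 and 1225 CPM untreated. For NPM1 the log2 change was -0.89 (adjusted p = 0.0014), and -1.14 (adjusted p = 7.2e-06) without replicate 2.

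Metabolic lists were called at shares at or below that of all genes. Sterol and fatty acid synthesis gave 2 higher and 3 lower of 28 (median -0.05), and 5 higher and 4 lower of 28 (median 0.07) without replicate 2, and ACLY, which makes cytosolic acetyl-CoA, rose. For ACLY the log2 change was 0.73 ± 0.18 (adjusted p = 0.0035), and 0.95 ± 0.18 (adjusted p = 0.00019) without replicate 2. ATF4 stress and amino acid genes gave 3 higher and 9 lower of 30 (median -0.34), and 4 higher and 9 lower of 30 (median -0.40) without replicate 2. SLC7A11, the cystine transporter, had 4.6, 7.07 and 4.96 CPM with TGFb and 59.3, 15.5 and 31.6 CPM untreated. For SLC7A11 the log2 change was -2.66 ± 0.53 (adjusted p = 0.00061), and -3.02 ± 0.49 (adjusted p = 4.2e-05) without replicate 2. TRIB3 fell. For TRIB3 the log2 change was -2.07 (adjusted p = 0.00066), and -2.21 (adjusted p = 0.00029) without replicate 2. ALDH1L2, a mitochondrial folate enzyme, rose. For ALDH1L2 the log2 change was 1.84 ± 0.32 (adjusted p = 0.00025), and 1.93 ± 0.37 (adjusted p = 0.00023) without replicate 2. Glycolysis and hypoxia genes gave 2 higher and 7 lower of 28 (median -0.14), and 4 higher and 8 lower of 28 (median -0.18) without replicate 2. CA12, a carbonic anhydrase, had 667, 456 and 452 CPM with TGFb and 110.5, 292 and 49.3 CPM untreated. For CA12 the log2 change was 1.80 ± 0.38 (adjusted p = 0.00094), and 2.70 ± 0.27 (adjusted p = 1.7e-07) without replicate 2. NDRG1, a stress gene, had 214, 212 and 265 CPM with TGFb and 1667, 392 and 467 CPM untreated. For NDRG1 the log2 change was -1.87 ± 0.38 (adjusted p = 0.00079), and -2.22 ± 0.35 (adjusted p = 2.6e-05) without replicate 2. Oxidative phosphorylation genes gave 2 higher and 10 lower of 28 (median -0.19), and 2 higher and 12 lower of 28 (median -0.22) without replicate 2. NDUFV1, of complex I, had 71.6, 78.8 and 66.3 CPM with TGFb and 134, 108 and 125 CPM untreated, with no overlap between the groups. For NDUFV1 the log2 change was -0.76 ± 0.10 (adjusted p = 4.1e-05), and -0.84 ± 0.10 (adjusted p = 1.8e-06) without replicate 2.

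Kidney genes did not fall together. Renal tubule transport genes gave 8 higher and 5 lower of 18 (median 0.48), and 8 higher and 4 lower of 18 (median 0.45) without replicate 2. SLC12A2, the basolateral sodium-potassium-chloride cotransporter, had 914, 706 and 567 CPM with TGFb and 300.3, 302 and 143 CPM untreated. For SLC12A2 the log2 change was 1.55 ± 0.23 (adjusted p = 8.2e-05), and 1.71 ± 0.26 (adjusted p = 2e-05) without replicate 2. ATP6V1B1, a proton pump subunit of intercalated cells, had 14, 25.1 and 28.1 CPM with TGFb and 120.3, 28.5 and 79.3 CPM untreated. For ATP6V1B1 the log2 change was -1.75 ± 0.35 (adjusted p = 0.00072), and -2.15 ± 0.25 (adjusted p = 1e-06) without replicate 2. KCNN4, a calcium-gated potassium channel, fell. For KCNN4 the log2 change was -1.30 (adjusted p = 0.00055), and -1.27 (adjusted p = 0.00076) without replicate 2. Lineage transcription factors gave 2 higher and 6 lower of 19 (median -0.25), with the same counts without replicate 2. The medians were -0.10, and -0.14 without it, where genes with no count in a group were set at their bound. Such a bound is no estimate of a change, and at few counts it can lie on the side of a rise, as for CLDN2. PAX8, a factor of the kidney lineage, had 98.8, 88.6 and 102 CPM with TGFb and 348, 129 and 146 CPM untreated. For PAX8 the log2 change was -1.11 ± 0.28 (adjusted p = 0.004), and -1.36 ± 0.27 (adjusted p = 0.00031) without replicate 2. The call of PAX8 was lost without untreated replicate 1, with an adjusted p = 0.06. IRX2, an Iroquois factor, fell. For IRX2 the log2 change was -1.64 ± 0.31 (adjusted p = 0.00048), and -1.92 ± 0.27 (adjusted p = 7.6e-06) without replicate 2. HOX genes, which mark position along the body axis, gave 3 higher and 1 lower of 26 (median -0.08), and 4 higher and 2 lower of 25 (median -0.06) without replicate 2, and HOXA11 and HOXA10 rose. For HOXA11 the log2 change was 1.02 (adjusted p = 0.0024), and 1.20 (adjusted p = 0.00077) without replicate 2. For HOXA10 the log2 change was 0.89 (adjusted p = 0.0016), and 1.07 (adjusted p = 0.00033) without replicate 2.

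The labelled cell type was checked with markers of kidney tubule epithelium and of other cells. Of 9 tubule markers tested, the called ones were 0 higher and 5 lower of 9 (median -0.99), and 0 higher and 6 lower of 9 (median -1.23) without replicate 2, and the summed level of the 14 in the table was 3243, 3143 and 3369 CPM with TGFb and 5846, 4065 and 3744 CPM untreated. Of 12 fibroblast and mural cell markers in the table, PDGFRB, DPT, FAP and RGS5 were at 0 in all 6 libraries, and DCN had 1 count in all. LUM, lumican, was at 4.80, 1.10 and 1.20 CPM with TGFb and had no count in the untreated libraries. Their sum was 148, 75.3 and 66.9 CPM with TGFb and 157, 131 and 41.4 CPM untreated, nearly all from NOTCH3, S100A4 and PDGFRA. S100A4, often used as a fibroblast marker, was lower with TGFb, at 6.52, 4.63 and 6.01 CPM, against 64, 17 and 22.9 CPM untreated. For S100A4 the log2 change was -2.62 ± 0.40 (adjusted p = 9.6e-05), and -2.96 ± 0.37 (adjusted p = 1.8e-06) without replicate 2. Of 5 tested markers of this list 1 was called higher and 1 lower. Endothelial markers, of which 3 were tested, 1 called higher and 2 lower, summed to 2.44 to 5.18 CPM with TGFb and 3.56 to 12.02 CPM untreated, and leukocyte markers, nearly all of it from CD74, to 105 to 133 CPM with TGFb and 73.0 to 252 CPM untreated, with none of 3 tested called in edgeR's fit of all libraries. How far other cells contribute was not tested.

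Some genes were called only when replicate 2 was left out. RAB5C, an endosomal GTPase, had 319, 343 and 324 CPM with TGFb and 133, 381 and 129 CPM untreated. For RAB5C the log2 change was 0.61 (adjusted p = 0.057), and 1.32 (adjusted p = 2.7e-09) without replicate 2. PMEPA1, which is induced by TGFb and damps its signal, had 633, 680.3 and 656 CPM with TGFb and 178, 757 and 141 CPM untreated. For PMEPA1 the log2 change was 0.87 (adjusted p = 0.067), and 2.04 (adjusted p = 6.1e-09) without replicate 2. EFHD1, a calcium-binding mitochondrial protein, had 1110, 1574 and 999 CPM with TGFb and 83.1, 1341 and 87.2 CPM untreated. For EFHD1 the log2 change was 1.28 (adjusted p = 0.12), and 3.85 (adjusted p = 8.6e-09) without replicate 2. IGSF23 had 1559, 1453 and 1286 CPM with TGFb and 54.6, 1070 and 28.3 CPM untreated. For IGSF23 the log2 change was 1.90 (adjusted p = 0.053), and 5.09 (adjusted p = 8.1e-09) without replicate 2. In RAB5C, PMEPA1, MICAL3, an actin-oxidizing enzyme, and KLHL26 replicate 2 was the highest of the 6 libraries. The falls were ATP2B1, GPN1, SIM2, GEMIN6, DDX10 and LRPPRC, and in each replicate 2 was the lowest of the 6 libraries. ATP2B1, a plasma membrane calcium pump, had 81.9, 85.9 and 81.6 CPM with TGFb and 130.0, 70.2 and 117 CPM untreated. For ATP2B1 the log2 change was -0.35 (adjusted p = 0.062), and -0.57 (adjusted p = 3e-05) without replicate 2. These genes were chosen for being called without replicate 2 and not with it, so that its place among them follows from the choice. Over all genes called without it, it lay past the TGFb mean in 565 of 3383 higher and 507 of 3466 lower genes.

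The same treatment could be followed in 6 libraries that share none with the comparison above: MDCK-NBL2 with TGFb and siCTR at day 4 against untreated cells at day 0. They differ from it in the control siRNA and in the day of the untreated cells, which adds 4 days of growth to the treatment. In that comparison 3824 genes were called higher (30.7%) and 3277 lower (26.3%), 57% of the genes in all. Of the 2612 genes called higher at day 4, 2196 were called higher there too, which is 84.1% of them and 57.4% of the other list. Of the 2913 called lower, 2162 were called lower there, which is 74.2% of them and 66% of the other list, and 3 and 17 genes were called the opposite way. Without untreated day 0 replicate 1, 3700 genes were higher and 3062 lower.

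Not all genes named above were called in these libraries. ZEB1 had a log2 fold change of 1.50 (adjusted p = 0.093) there and ADAM12 one of 0.48 (adjusted p = 0.5). PAX8 had one of -0.19 (adjusted p = 0.59) and LAMB2 one of -0.20 (adjusted p = 0.3). PTGES was at -0.95 (adjusted p = 0.18), CGN at -0.54 (adjusted p = 0.08), ADAMTS1 at -1.73 (adjusted p = 0.075) and TIMP3 at 1.17 (adjusted p = 0.0502). These are examples and not the full set. The genes named next were called there. TGFBI had 9343, 7871 and 8079 CPM with TGFb and siCTR and 55.5, 2.84 and 3.1 CPM at day 0, COL1A1 had 1766, 1938 and 1758 CPM and 3.67, 0.0661 and 0.269 CPM in the same order of groups, and both were higher in day 0 replicate 1 than in the other day 0 libraries. ACTA2 had a log2 fold change of 6.82 (adjusted p = 0.00028) there and BAMBI one of 5.79 (adjusted p = 0.0002), and TIMP1 one of -3.07 (adjusted p = 0.00057). Mitotic genes summed to 478, 252 and 273 CPM with TGFb and siCTR and to 3951, 5261 and 5561 CPM at day 0. Fibrillar collagens gave 8 higher and 0 lower of 10 (median 4.22), contractile genes 23 higher and 1 lower of 30 (median 1.82), ER and COPII genes 20 higher and 0 lower of 34 (median 0.39), and ribosome biogenesis genes 0 higher and 28 lower of 30 (median -1.05).

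The lists of interferon response and sterol synthesis genes were among those whose counts differed with the untreated cells used. Against untreated cells at day 4, interferon response genes gave 0 higher and 13 lower of 31 (median -0.81), and 2 higher and 4 lower of 31 (median -0.38) without replicate 2. In the comparison with day 0 they gave 17 higher and 0 lower of 31 (median 1.28). MX1, an antiviral GTPase, had 8.06, 9.5 and 9.17 CPM with TGFb and 174, 221 and 68.4 CPM untreated at day 4. It had 9.23, 9.43 and 14.1 CPM with TGFb and siCTR, and 6.37, 5.99 and 18.3 CPM at day 0. For MX1 the log2 change was -4.11 ± 0.95 (adjusted p = 0.0019), and -3.77 ± 0.98 (adjusted p = 0.0032) without replicate 2. The high group was thus the untreated cells at day 4. ISG15, a ubiquitin-like protein named after its values were seen, had 50.6, 63.6 and 46.3 CPM with TGFb and 97.4, 362 and 77.3 CPM untreated at day 4. It had 39.1, 70.9 and 76.4 CPM with TGFb and siCTR and 4.5, 3.54 and 12.2 CPM at day 0. Against day 4 it was lower only with replicate 2 in the model. For ISG15 the log2 change was -1.74 (adjusted p = 0.039), and -0.71 (adjusted p = 0.35) without replicate 2. Against day 0 its log2 fold change was 3.30 (adjusted p = 0.00099). The day 4 call of ISG15 was lost without TGFb replicate 1, 2 or 3, with a highest adjusted p = 0.11. The antiviral genes RSAD2 and OAS2, named in the same way, followed ISG15: RSAD2 had 34, 47.8 and 84.3 CPM with TGFb and 84.2, 381 and 105 CPM untreated at day 4. For RSAD2 the log2 change was -1.78 (adjusted p = 0.048), and -0.77 (adjusted p = 0.35) without replicate 2. Against day 0 its log2 fold change was 2.31 (adjusted p = 0.012). The day 4 call of RSAD2 was lost without TGFb replicate 1 or 2, with a highest adjusted p = 0.15. OAS2 had 23.2, 33 and 25.7 CPM with TGFb and 52.8, 151 and 22.4 CPM untreated at day 4. For OAS2 the log2 change was -1.47 (adjusted p = 0.024), and -0.48 (adjusted p = 0.36) without replicate 2. Against day 0 it was 1.70 (adjusted p = 0.011). The day 4 call of OAS2 was lost without TGFb replicate 1 or 3, with a highest adjusted p = 0.078. IFI35 fell with MX1. For IFI35 the log2 change was -2.57 ± 0.60 (adjusted p = 0.0023), and -2.07 ± 0.62 (adjusted p = 0.0082) without replicate 2. Its difference against day 0 was 0.31 (adjusted p = 0.7). In MX1, ISG15, RSAD2 and OAS2 the highest of the 12 libraries was untreated replicate 2 at day 4. Summed over 31 interferon genes, the level was 1382, 1573 and 1445 CPM with TGFb, 1782, 4094 and 1331 CPM untreated at day 4, 1233, 1661 and 1722 CPM with TGFb and siCTR, and 613, 592 and 802 CPM untreated at day 0. Untreated replicate 2 held the highest sum of these 12 libraries.

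Sterol and fatty acid genes gave 2 higher and 3 lower of 28 (median -0.05) against day 4 and 18 higher and 0 lower of 28 (median 0.80) against day 0. Their sum was 11570, 11100 and 8191 CPM with TGFb and 10350, 10540 and 7581 CPM untreated at day 4, 10390, 10600 and 9566 CPM with TGFb and siCTR, and 5320, 5517 and 4606 CPM untreated at day 0. Epithelial lists shifted as well. Against day 0, tight junction proteins gave 6 higher and 2 lower of 19 (median 0.19). Epithelial transcription factors and splicing regulators gave 6 higher and 7 lower of 16 (median -0.09). Apical polarity and trafficking genes gave 5 higher and 7 lower of 24 (median -0.01). ATF4 stress and amino acid genes gave 14 higher and 6 lower of 30 (median 0.27). Day and treatment cannot be told apart in the second comparison. Single epithelial genes differed in the same way: CGNL1, which fell against day 4, had a log2 fold change of 1.71 (adjusted p = 0.042) against day 0, where it had 6.45, 10.2 and 8.74 CPM with TGFb and siCTR and 1.39, 1.52 and 5.79 CPM untreated. Against day 0 the log2 fold change was -0.04 (adjusted p = 0.93) for SOX9, 0.52 (adjusted p = 0.14) for KRT19 and -0.35 (adjusted p = 0.22) for TGFBR2, none of which passed the test, and these differences between the comparisons were not themselves tested.

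**Figure D4:**
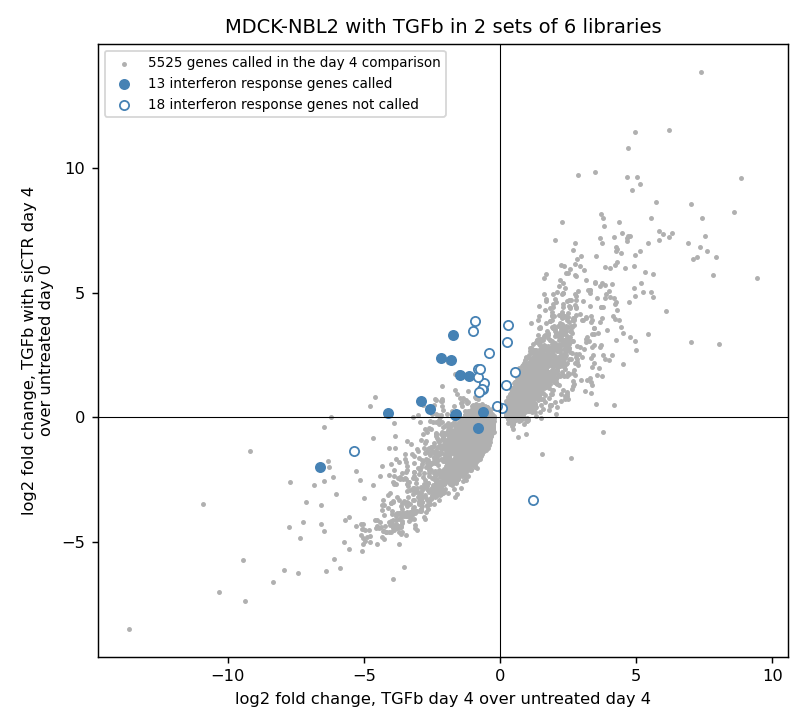
Log2 fold change of the 5525 genes called in the day 4 comparison (x axis, TGFb over untreated day 4) against that in the other 6 libraries (y axis, TGFb with siCTR day 4 over untreated day 0), with 31 interferon response genes in blue, filled where called at day 4. Most called genes lie in the lower left and upper right, and many interferon genes lie in the upper left.

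**Figure D5:**
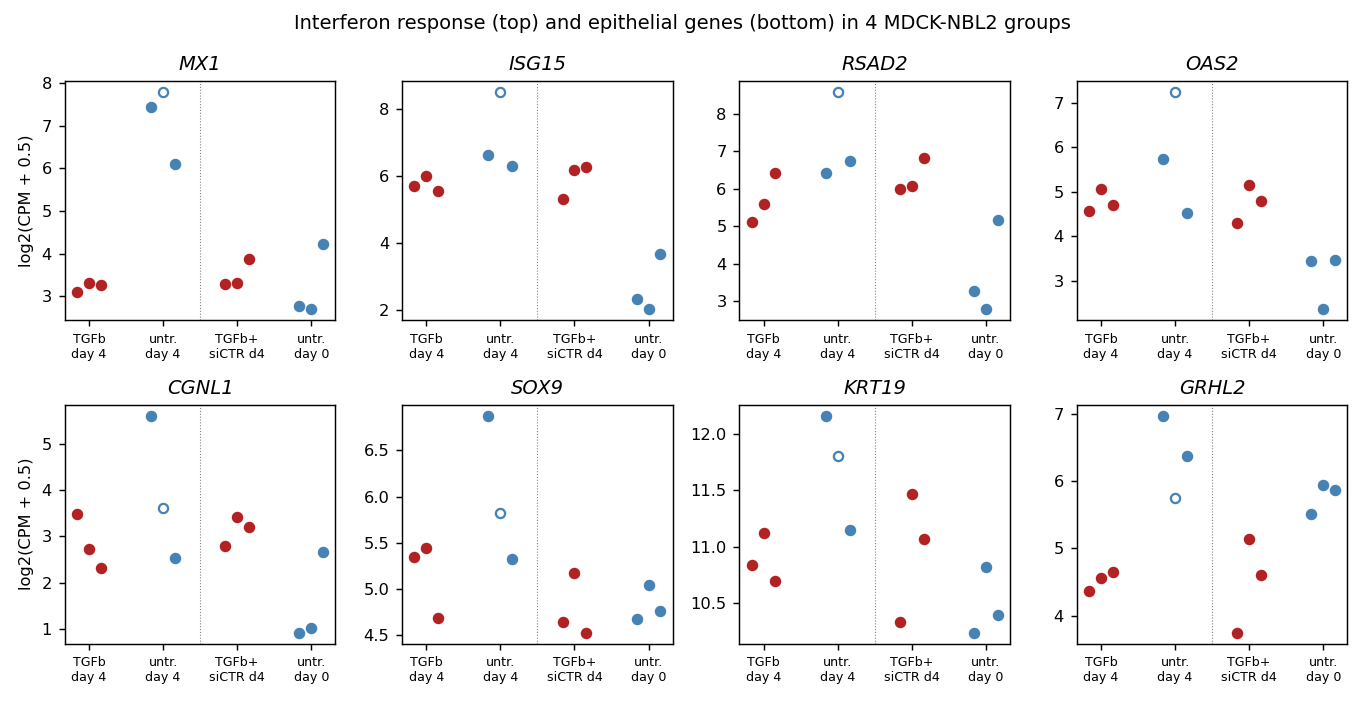
Level of 8 genes as log2(CPM + 0.5) in TGFb-treated libraries (red) and their untreated counterparts (blue), 3 libraries each: TGFb and untreated at day 4, then TGFb with siCTR at day 4 and untreated at day 0, with the open circle for untreated day 4 replicate 2. In the 4 interferon genes of the top row the open circle is the highest of the 12 points, and SOX9 and KRT19 have their highest library in untreated cells at day 4.

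Where MDCK-NBL2 differed from the other subline was tested as the difference of the TGFb responses, MDCK-NBL2 minus MDCK-II, at day 4. With all libraries 314 genes had a more positive difference (2.52% of those tested) and 397 a more negative one (3.18%), 711 in all (5.7%). Without replicate 2 the counts were 1248 (9.93%) and 1405 (11.2%), so that this count depended on replicate 2. It also fell to 311, 415 and 411 genes without TGFb replicates 1, 2 and 3 of MDCK-NBL2, to 398 and 353 without TGFb replicates 1 and 2 of MDCK-II, and to 451 and 350 without untreated replicates 2 and 3 of MDCK-II, while DESeq2's Wald test called 1188. The 8 genes named here were called with and without replicate 2 and with each other library left out. ARG2, a mitochondrial arginase, had 68.9, 85.8 and 74 CPM with TGFb and 175, 159 and 164 CPM untreated in MDCK-NBL2, against 88.4, 102 and 88 CPM with TGFb and 64.7, 65.2 and 59.9 CPM untreated in MDCK-II, a difference of -1.67 ± 0.16 on the log2 scale (adjusted p = 3.2e-05). SLC4A11, a membrane transporter of the bicarbonate transporter family, had 29.7, 34 and 33.7 CPM with TGFb and 112, 80.1 and 75.2 CPM untreated in MDCK-NBL2 and 15.8, 25.3 and 21.5 CPM with TGFb and 4.46, 8.37 and 7.04 CPM untreated in MDCK-II (-3.10 ± 0.32, adjusted p = 3.3e-05). CX3CL1, the membrane-bound chemokine fractalkine, had 19.2, 14.7 and 15.2 CPM with TGFb and 25.8, 23.2 and 18.9 CPM untreated in MDCK-NBL2 and 108, 94.1 and 89.4 CPM with TGFb and 40.6, 39.6 and 37.4 CPM untreated in MDCK-II (-1.79 ± 0.20, adjusted p = 0.00013). TLE1, a Groucho corepressor, had 16.3, 14.6 and 16.7 CPM with TGFb and 25.1, 25.8 and 19.5 CPM untreated in MDCK-NBL2 and 52.8, 45.6 and 44.6 CPM with TGFb and 20.7, 22.3 and 21.9 CPM untreated in MDCK-II (-1.71 ± 0.21, adjusted p = 0.0003). These 4 fell with TGFb in MDCK-NBL2 and were higher with TGFb in every MDCK-II library than in every untreated one. The groups of CX3CL1 overlapped in MDCK-NBL2, where its log2 change was -0.48 (adjusted p = 0.012).

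The 4 genes with a more positive response in MDCK-NBL2 were ST7, ANO4, AMACR and PDE4DIP. AMACR, a racemase of branched-chain fatty acid breakdown, had 59.5, 56 and 58.6 CPM with TGFb and 30.7, 34.2 and 31.7 CPM untreated in MDCK-NBL2 and 41.6, 42.8 and 42.7 CPM with TGFb and 51.9, 44.3 and 42.6 CPM untreated in MDCK-II (0.98 ± 0.14, adjusted p = 0.00084). PDE4DIP, a Golgi and centrosome scaffold, had 76.5, 71.4 and 82.4 CPM with TGFb and 35.3, 37.1 and 30.3 CPM untreated in MDCK-NBL2 and 43.8, 43 and 41.8 CPM with TGFb and 59.8, 38.7 and 46.4 CPM untreated in MDCK-II (1.33 ± 0.19, adjusted p = 0.00086). ANO4, a protein of the anoctamin family, had 59.1, 53.4 and 47.2 CPM with TGFb and 40.9, 34.5 and 37.3 CPM untreated in MDCK-NBL2 and 24.6, 36.1 and 24.6 CPM with TGFb and 48.9, 68.5 and 70.6 CPM untreated in MDCK-II (1.63 ± 0.22, adjusted p = 5e-04). ST7 had 55.2, 55.3 and 54.6 CPM with TGFb and 34.2, 41.9 and 40.0 CPM untreated in MDCK-NBL2 and 37.3, 38.9 and 37.9 CPM with TGFb and 47.2, 52 and 49.3 CPM untreated in MDCK-II (0.89 ± 0.12, adjusted p = 5e-04). All 4 rose in MDCK-NBL2 with no overlap between the groups, ST7 and ANO4 were lower with TGFb in every treated MDCK-II library, and the groups of AMACR and PDE4DIP overlapped in MDCK-II. In all 8 genes untreated replicate 2 lay with the other untreated libraries or close to them. They were chosen for the smallest p among genes called with and without that library, so its place follows in part from the choice.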

How the data were processed

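Counts per gene were deposited by the authors in 1 table of 24 MDCK libraries and 32704 genes, of which 18660 carry a symbol. Per the labels' protocols the libraries are stranded mRNA libraries, and per the submitters' processing notes STAR 2.5.3a, RSEM 1.3.0, FastQC and the build CanFam3.1 were used. The sources used here do not give the strand setting of the counting or how the deposited counts became whole numbers, so genes that overlap others or have near-identical copies are uncertain.

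From these counts, edgeR 4.0.16 (limma 3.58.1, R 4.3.3) fitted 1 mean per group over all 24 libraries (TMM, filterByExpr with minimum counts of 10 and 15, 16 residual degrees of freedom), with Benjamini-Hochberg adjustment over the 12466 genes tested. The common biological coefficient of variation was 21.9%, and 17.7% over 12574 genes without untreated replicate 2. DESeq2 1.42.0, other normalization, no filter, a replicate block, a library series term, the 2 groups alone and each library left out were tried as alternatives. The scripts were tested on simulated data. No 2 libraries had identical values. Depth limits low genes: folds against a group with no count are bounds against 3 counts over that group, and counting intervals are exact and cover counting error only.

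The members, the 44 gene lists (1178 genes, 881 of them tested) and the naming rule were chosen with earlier results of these data known. The rule names up to 2 members per list and direction, called in both fits at 10 CPM or more, the 12 largest rises and falls, the 6 genes per direction that are called only without replicate 2 with the smallest p, and the 4 genes per direction with the smallest p for the difference to MDCK-II. Genes said to be named or picked after their values were seen, and ZEB2, PRRX2, SOX4, RUNX2, TCF3, FOXC2, SNAI1 and CCNE1, stand outside that rule. Some genes that the rule takes are counted but not reported here.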

Additional observations from a re-analysis of the deposited data

Results flagged for a closer look

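The TGFb response differed between the sublines for 711 genes in a test of the difference itself, edgeR's quasi-likelihood test of the response in MDCK-NBL2 minus that in MDCK-II. Among the 8 named genes, the difference of the log2 fold changes was positive for ANO4 (1.63), PDE4DIP (1.33), AMACR (0.98) and ST7 (0.89). It was negative for SLC4A11 (-3.10), CX3CL1 (-1.79), TLE1 (-1.71) and ARG2 (-1.67). Single outlying values within groups of 3 libraries were not screened.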

How the results depend on the processing

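Of 162 genes chosen for naming and called at day 4, 161 stayed called in the same direction with DESeq2 size factors, 155 of 156 with DESeq2's Wald test, 156 with no filter on low counts and 158 with the library series as a term. The counts of genes called were then 5570, 5575, 5142 and 5329, against 5525. Without untreated replicate 2 and TGFb replicate 1 together, an alternative chosen after seeing the data, 6225 genes were called. With only the 2 groups compared, 510 genes were called (234 higher, 276 lower), and with an added limit of 2-fold in the model of all libraries 2291 (1031 higher, 1260 lower). With each library left out in turn the day 4 comparison called 4457 to 6890 genes (2049 to 3409 higher, 2351 to 3481 lower), the second comparison 5983 to 6762 (3160 to 3700 and 2823 to 3062), and the difference to MDCK-II 311 to 2653 (144 to 1248 and 167 to 1405). That difference gave 1188 genes by the Wald test (488 higher, 700 lower) and 154 higher with no filter. The cause was not tested.

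Same-numbered libraries correlated in their deviations by 0.12, 0.04 and 0.28, and TGFb replicates 1 and 2 each correlated best with another number. For TGFb replicate 1 that was untreated replicate 2 (0.18), which stood apart from its group. Values this weak cannot decide whether the numbers are pairs. No pairing is stated, so the main fit held no replicate block. Replicate 1 was the highest of its group for PRRX1, COL3A1 and LAMA4 in 3 groups. In untreated cells at day 4 replicate 2 was the highest for PRRX1 and LAMA4. With a replicate block over all 24 libraries 5745 genes were called, 5453 of them shared, and with a replicate block and only the 2 groups compared 40 (8 higher, 32 lower).

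Signs turned for 4 genes, none of which was called in any of these settings. SNAI1 was at 0.16 on the log2 scale without untreated replicate 1, and between -0.67 and that value with libraries left out. TCF3 was at 0.016 without untreated replicate 2, and at 0.067 also without TGFb replicate 1. FOXC2 was at 0.011 with DESeq2 size factors, 0.0078 by the Wald test, 0.0032 with the replicate block over all libraries, 0.13 without TGFb replicate 3 and 0.17 without untreated replicate 1, with a lowest value of -0.26 among the fits with libraries left out. VIM was at -0.19 without untreated replicate 2, -0.15 also without TGFb replicate 1, -0.22 with only the 2 groups and without untreated replicate 2, -0.00096 without TGFb replicate 3, and at most 0.45, without untreated replicate 3.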
